A study of Ovis aries with 2 samples.

Results

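The ADAM and ADAMTS proteases and the ADAMTS-like genes were followed through the cells of a sheep artery and of an implanted vascular graft. Genes were taken by symbol, and 44 of the 21890 genes in the count matrices carried an ADAM, ADAMTS, ADAMTSL or ADAMDEC1 symbol. Of these, 41 reached at least 10 unique molecular identifiers (UMIs, single tagged transcript molecules) over both libraries and are the members described here: 18 ADAM genes with ADAMDEC1 among them, 18 ADAMTS genes and 5 ADAMTS-like genes. ADAM7, ADAM20 and ADAM29 had 2, 9 and 0 UMIs and were left out. All 41 members had at least 1 UMI in each library.

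Droplet-based single-cell RNA sequencing was run on 1 library of native carotid artery and 1 library of a graft named H2R5-ATEV, a cell-free vessel substitute placed in sheep. Both tissues came from sheep of 1 to 2 years and were removed at 12 weeks. The native sample is titled as aorta but sourced and described as carotid artery, and the text speaks of the native artery. The number of animals, and whether both tissues came from the same one, is not given in the labels. Cells were freed by enzymes perfused into the clamped vessel. No genotype, drug or transgene is named for either group, and the labels list fibroblasts among the cell types of the artery but not of the graft.

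ADAM proteins are membrane-anchored proteases that cut the outer part off other membrane proteins, a step called shedding, and several members have lost the catalytic motif and act in adhesion. ADAMTS proteins are secreted and bind the matrix, where they trim procollagens, cleave large proteoglycans such as versican, act on fibrillin microfibrils or cut von Willebrand factor. ADAMTS-like proteins share the matrix-binding part but have no protease domain. In arteries these genes are known for matrix turnover, Notch signalling and the response of smooth muscle cells to injury.

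Poor barcodes and likely doublets were removed, which left 40543854 UMIs in 10080 native cells and 35249348 UMIs in 1074 graft cells, at medians of 1495.5 and 20832 UMIs per cell. The libraries shared 7 barcode sequences, of which 4 were kept in both. Cells were clustered and clusters were named from marker genes; names mean cells that resemble the type. The native and graft classes held 5451 and 205 endothelial cells, 162 and 200 smooth muscle cells, 404 and 303 macrophages, 1848 and 28 fibroblasts, and 1189 and 69 T or NK cells. Unnamed clusters held 992 native and 255 graft cells, and B or plasma cells numbered 34 and 14. UMIs were summed per library and class and scaled to a total of 1000000 (CPM), and 1 UMI was worth 1.22 CPM in native smooth muscle cells and 0.0917 CPM in graft ones. CPM are not scaled to transcript length, so a gene is compared with itself across cells and not with other genes. The 12 smooth muscle markers summed to 7779 CPM in native and 10430 CPM in graft smooth muscle cells, and the 13 endothelial markers to 4827 and 5312 CPM in endothelial cells. With 1 library per tissue there is no replicate and no test between tissues. All intervals are at 95% and cover counting error only.

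Members were spread over all 5 main cell classes. Of 38 members with at least 10 UMIs in the named classes of the native artery, 15 had their highest CPM in fibroblasts, 9 in smooth muscle cells, 6 in endothelial cells, 5 in macrophages and 3 in T or NK cells. In the graft, where fibroblasts were too few to be ranked, 36 members were ranked, with 15 highest in smooth muscle cells, 11 in endothelial cells, 6 in macrophages and 4 in T or NK cells. The ranks of ADAM2 and ADAM23 in native smooth muscle cells and of ADAM22 and ADAM23 in graft T or NK cells rested on 1 UMI each. Because graft fibroblasts were left out, the counts of the tissues are not compared. How all genes divide over the classes was not computed, so no preference of the family for a class is read from these counts.

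**Figure D1:**
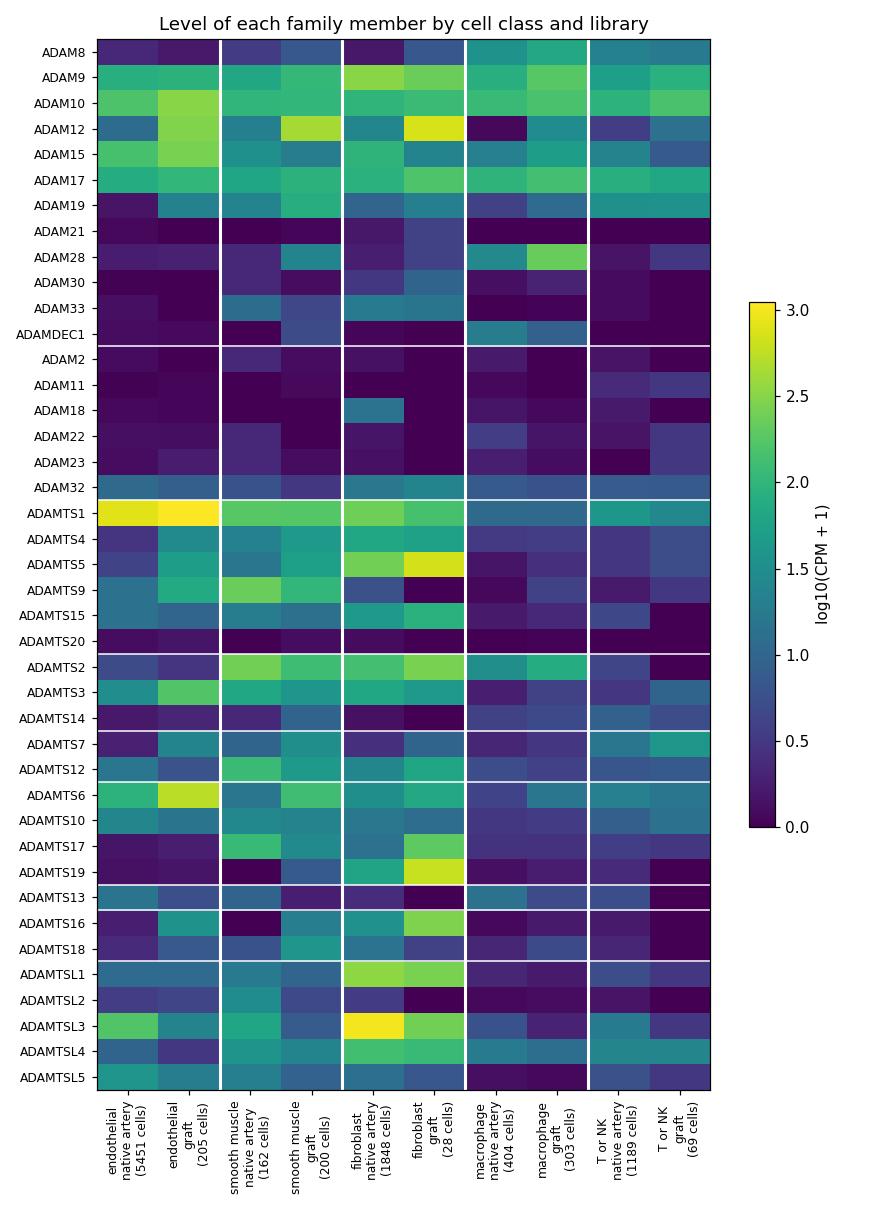
Level of each of the 41 members as log10(CPM + 1), with genes in rows by function and 5 cell classes of each library in columns. ADAM12 lies between 0.164 and 24.3 CPM in the native columns and between 292 and 733 CPM in graft endothelial cells, smooth muscle cells and fibroblasts, and ADAM10 lies between 91.7 and 319.95 CPM in all 10 columns.

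A member was counted as higher or lower in the graft when its ratio was at least 2-fold after 5 CPM were added to both sides, among members with at least 10 UMIs in the class over both libraries. In smooth muscle cells 33 members could be judged: 10 were higher and 6 lower in the graft, against a background of 7.89% higher and 8.20% lower among the 14275 genes judged. In endothelial cells 10 of 33 members were higher and 1 was lower, against 7.26% and 5.98% of 15061 genes. In macrophages 6 of 31 members were higher and 0 lower, against 5.98% and 2.87% of 14390 genes. The members counted as higher made up 30.3%, 30.3% and 19.4% of those judged in the 3 classes. Some of them reached 10 UMIs only through the graft. In native smooth muscle cells ADAMTS16 and ADAMTS19 had 0 UMIs, ADAM28 and ADAMTS14 had 1, ADAMTS18 had 4 and ADAMTS7 had 7. ADAM19 had 8 in native endothelial cells, and ADAM12 had 1 in native macrophages. Genes of the background could enter in the same way, and the counts are given with that limit. The median log2 ratio of the members was -0.02 in smooth muscle cells, 0.13 in endothelial cells and 0.18 in macrophages, beside medians of -0.03, -0.03 and 0.03 over all genes judged. The members within 2-fold numbered 17, 22 and 25 in smooth muscle cells, endothelial cells and macrophages.

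**Figure D2:**
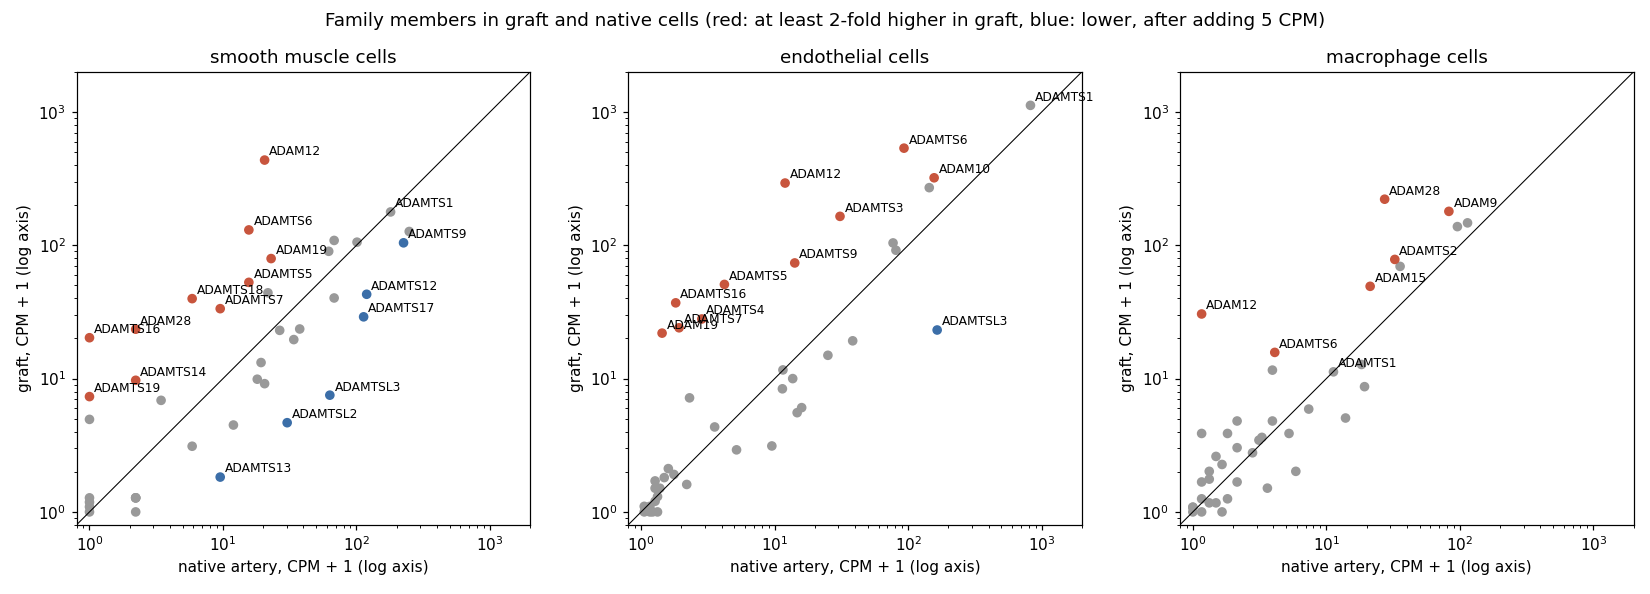
CPM + 1 of each member in native (horizontal, log axis) and graft cells (vertical, log axis) of 3 classes, 1 point per gene. ADAM12 and ADAMTS6 lie above the diagonal in all 3 panels, ADAMTSL3 lies below it in smooth muscle and endothelial cells, and ADAMTS1 lies near it in smooth muscle cells and macrophages.

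ADAM10 and ADAM17, the main sheddases of Notch receptors and of tumour necrosis factor, were present in every class and passed the 2-fold limit in 1 of 6 comparisons. ADAM10 stood at 105 CPM in graft and 99.96 CPM in native smooth muscle cells, a ratio of 1.05 (0.836 to 1.33). In macrophages it stood at 146 and 113 CPM in graft and native cells, a ratio of 1.29 (1.18 to 1.41). Endothelial cells were the exception, with 319.95 CPM in graft and 156 CPM in native cells, a ratio of 2.06 (1.96 to 2.16). That value lies at the edge of the 2-fold limit, and 5 of 13 processing alternatives put it below. Within cluster 9, named endothelial and with cells of both tissues, ADAM10 was at 145 and 191 CPM in graft and native cells, a ratio of 0.760 (0.506 to 1.10). Cluster 9 took its name from 3 endothelial markers, the fewest allowed, and no endothelial marker was among its 10 leading genes. This limits every comparison within cluster 9 below. The macrophage log2 ratio of ADAM10 changed from 0.36 to -0.14 without doublet removal. ADAM17 was 1.46-fold higher in graft smooth muscle cells (1.10 to 1.98), 1.36-fold in endothelial cells (1.25 to 1.47) and 1.44-fold in macrophages (1.31 to 1.59), and none of these reached 2-fold as counted here; without doublet removal the smooth muscle value was at log2 1.01. Fibroblasts held ADAM17 at 163 CPM in graft and 87.6 CPM in native cells.

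ADAM12, a protease of mesenchymal cells that sheds growth factor precursors, had a higher CPM in the graft in all 5 main classes. The values of T or NK cells and macrophages have limits given below. In smooth muscle cells ADAM12 (ENSOARG00020023949) stood at 435 CPM in graft (423 to 447) and 19.5 CPM in native cells (11.1 to 31.7), a 22.3-fold difference (13.7 to 39.0). In endothelial cells it stood at 292 and 10.97 CPM, a 26.6-fold difference (23.1 to 30.9). The 28 graft fibroblasts held it at 733 CPM and the native ones at 24.3 CPM. Graft and native intervals did not overlap in any of these classes. T or NK cells had 12.7 CPM from 6 graft UMIs and 2.67 CPM in the artery.

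ADAM12 was also higher in 2 clusters that hold cells of both tissues. In fibroblast cluster 4 it was at 734 and 26.8 CPM in graft and native cells, a 27.4-fold difference (22.6 to 33.2), and in endothelial cluster 9 at 149.9 and 18.6 CPM, an 8.04-fold difference (5.08 to 12.4). After each cell was thinned to 1000 UMIs, with shallower cells left out, 34.0% of graft smooth muscle cells (27.5 to 41.0%) had an ADAM12 UMI, and 0 of 110 native ones, which by 3 counts of the total allows a share of cells with a UMI of up to 2.73%. Without thinning the shares were 91.5% and 2.47% of cells, at median depths of 34741.5 and 2259 UMIs. Of the 16 native UMIs in smooth muscle cells, 6 lay in cluster 11 (8.11 CPM), which held 150 of the 162 native cells. The rest lay in the 12 native cells of cluster 21, whose 197 graft cells were at 436 CPM. The level of these 12 native cells was not computed, and the smooth muscle difference is given with that limit. Thinned graft endothelial cells had an ADAM12 UMI in 16.2% of cells (11.3 to 22.0%) and native ones in 1.00% (0.705 to 1.39%), while native T or NK cells, which should lack the gene, had one in 0.275%. In macrophages ADAM12 stood at 29.5 CPM in the graft and rested on 1 native UMI, a ratio of 181 with an interval from 32.2 to 7151. Within macrophage cluster 13 it had 0 graft UMIs and 1 native UMI, so the difference was not seen there. Of the graft macrophage UMIs, 90.8% lay in the 5% of graft cells with most of them. All 5 procollagen genes judged were likewise at least 2-fold higher in graft macrophages, beside 5.98% of all genes. COL1A1, a chain of type I collagen, was at 251 and 17.5 CPM in graft and native macrophages. Smooth muscle markers summed to 104.1 and 15.7 CPM there, with 12 and 9 of 12 detected, and fibroblast markers to 786.9 and 570.5 CPM, with 12 of 12 in each. The part of RNA from other cells in this ADAM12 value was not tested.

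**Figure D3:**
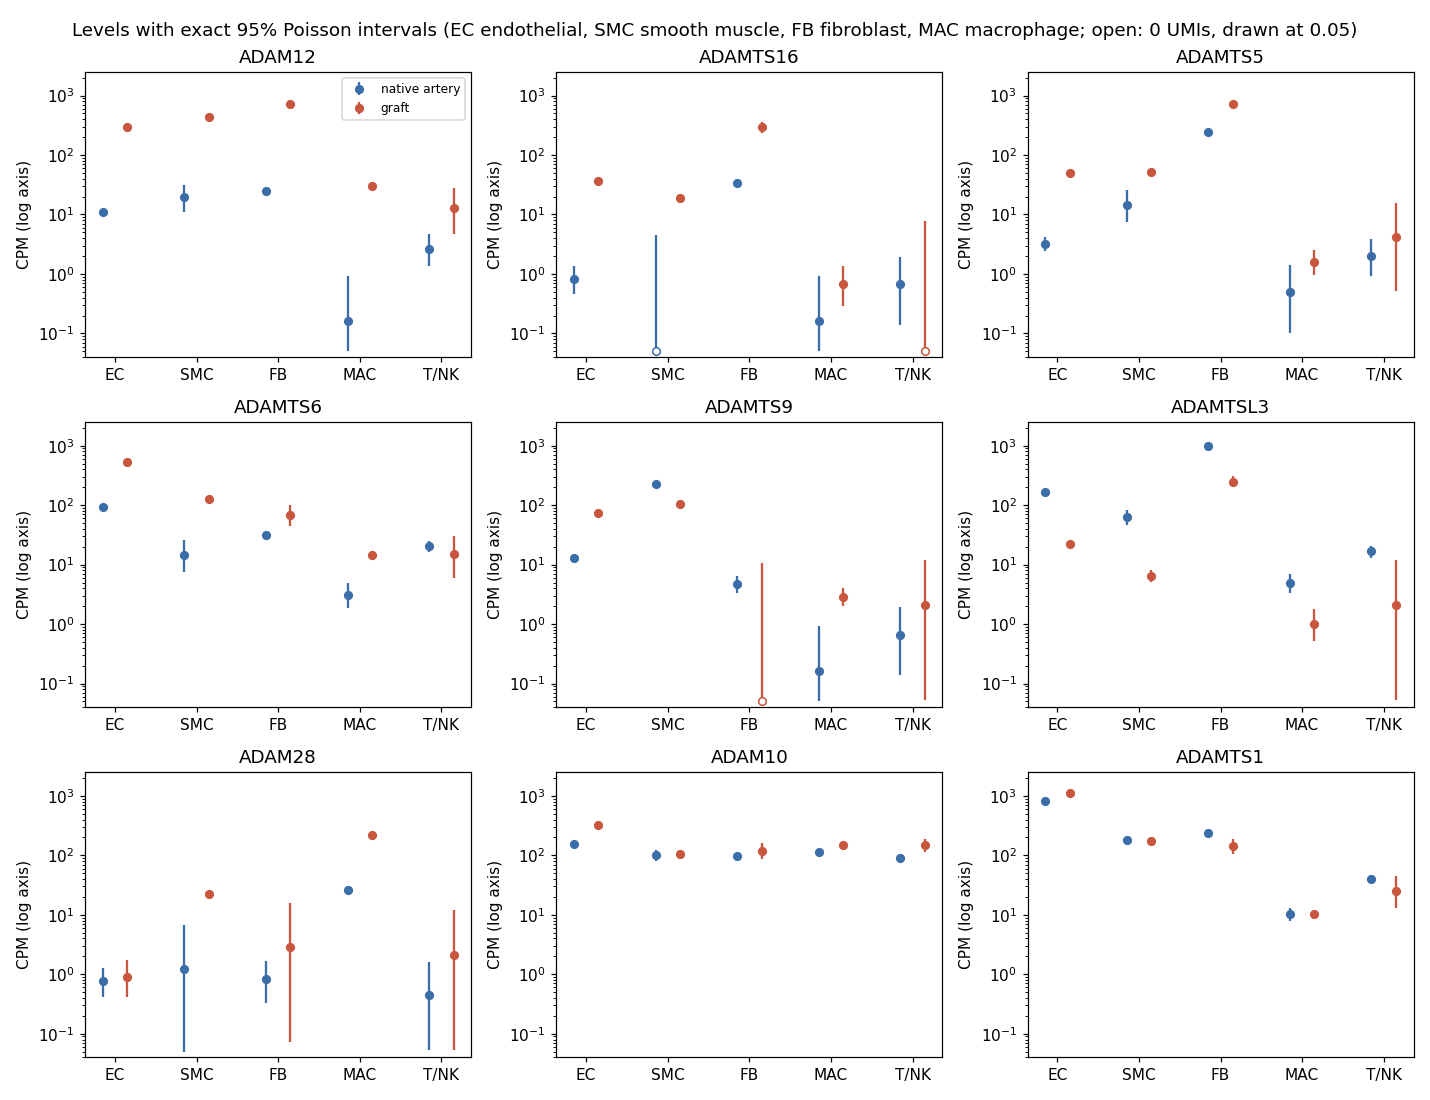
CPM of 9 members (log axis) in endothelial (EC), smooth muscle (SMC), fibroblast (FB), macrophage (MAC) and T or NK cells of the native artery (blue) and graft (red), with exact Poisson intervals and open points for 0 UMIs. ADAM12 is higher in the graft in all 5 classes, from 6 graft UMIs in T or NK cells and 1 native UMI in macrophages. ADAMTSL3 is lower in all 5, from 1 graft UMI in T or NK cells. ADAMTS9 is higher in graft endothelial cells and lower in graft smooth muscle cells.

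ADAM19, a close relative of ADAM12 with roles in heart and vessel development, was higher in the graft in both vessel wall classes. Smooth muscle cells had it at 78.5 CPM in graft and 21.9 CPM in native cells, a 3.58-fold difference (2.25 to 6.07). In endothelial cells it was at 20.9 CPM in graft and 0.434 CPM (8 UMIs) in native cells, a 48.2-fold difference (24.0 to 113). T or NK cells had ADAM19 at 36.1 CPM in graft and 32.7 CPM in native cells. Among these cells its level was highest in cluster 10, led by natural killer cell genes, at 74.4 CPM in graft and 89.2 CPM in native cells, against 3.94 and 2.55 CPM in the T cell cluster 8.

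ADAM28, a protease of lymphoid and myeloid cells, was highest in macrophages of both tissues. Graft macrophages held 221 CPM (212 to 229) and native ones 26.3 CPM (22.4 to 30.7), an 8.38-fold difference (7.14 to 9.89) with no overlap of the intervals. After thinning, 15.8% of graft (11.9 to 20.4%) and 2.48% of native macrophages (1.19 to 4.50%) had an ADAM28 UMI, and 0.0558% of native endothelial cells did. The level differed by cluster: cluster 16, with 269 of the 303 graft macrophages and 1 native cell, was at 231 CPM. Cluster 13, with 34 graft and 403 native macrophages, was at 39.4 CPM in graft and 26.4 CPM in native cells, a ratio of 1.495 (0.931 to 2.31). In the alternative without doublet removal, where 33 graft cells were named macrophages, the log2 ratio was 0.54 in place of 2.85. Markers of osteoclasts summed to 1859 CPM in graft and 199.4 CPM in native macrophages, with 8 and 4 of 8 detected. Those of neutrophils summed to 545.2 and 25.4 CPM, with 4 and 3 of 5 detected, and those of cycling cells to 404.9 and 67.7 CPM, with 6 of 6 in each. Their part in the macrophage differences was not tested. A cluster of almost only 1 library may be that library and not a cell type. ADAM28 in smooth muscle cells was at 22.5 CPM in graft cells, with 1 native UMI, a ratio of 18.4 (3.28 to 731), and 77.6% of the graft UMIs lay in the top 5% of cells. Graft smooth muscle cells also carried macrophage markers at a summed 1515 CPM, against 199.9 CPM in native ones and 11 of 11 and 10 of 11 markers detected. Without the 25 graft and 12 native smooth muscle cells with at least 2 macrophage-marker UMIs that made up more than 0.2% of their UMIs, the log2 ratio of ADAM28 was 0.27 in place of 2.14.

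ADAM8, ADAM9 and ADAM15 are membrane proteases of leukocytes and of many other cells. ADAM9 stood at 179 CPM in graft and 81.8 CPM in native macrophages, a 2.19-fold difference (1.98 to 2.41), and at 127 and 81.1 CPM within cluster 13. ADAM15 stood at 48.2 and 20.3 CPM in the same class (2.38-fold, 1.95 to 2.91), but at 19.7 and 20.3 CPM within cluster 13, and at 49.8 CPM in cluster 16. Endothelial cells carried ADAM15 at 269.7 CPM in graft and 143 CPM in native cells, below the 2-fold limit. ADAM8 was at 68.5 and 34.7 CPM in graft and native macrophages, also below it. ADAM8 was at 107 CPM in the graft cells of cluster 17, an unnamed cluster of 18 native and 198 graft cells, the latter with a median of 652.5 UMIs, that was led by the osteoclast genes ACP5, MMP9 and CTSK. Over all 255 unnamed graft cells 25 had an ADAM8 UMI, and 92.9% of these UMIs lay in the top 5% of cells. ADAMDEC1, a secreted relative made by macrophages and dendritic cells, was at 7.70 CPM in graft and 18.3 CPM in native macrophages.

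The remaining ADAM genes were low. ADAM33, known from airway smooth muscle and fibroblasts, was at 17.3 CPM in native fibroblasts, 10.97 CPM in native and 3.49 CPM in graft smooth muscle cells, and had 0 UMIs in graft endothelial cells. Of the 6 members without a catalytic motif, which include the sperm proteins ADAM2 and ADAM18 and the neuronal adhesion proteins ADAM11, ADAM22 and ADAM23, ADAM32 alone was above 10 CPM in more than 1 class and library; its highest values were 22.8 CPM from 8 graft fibroblast UMIs and 15.5 CPM in native fibroblasts. ADAM18 was found mainly in native fibroblasts, with 115 UMIs (13.5 CPM). ADAM21 and ADAM30 did not exceed 2.85 and 8.55 CPM, which are 1 and 3 UMIs in graft fibroblasts.

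Among the proteoglycan-cleaving members, ADAMTS1, which cuts versican and is known from endothelium, was highest in endothelial cells in both tissues. ADAMTS1 (ENSOARG00020003950) stood at 1120.4 CPM in graft and 824 CPM in native endothelial cells, a ratio of 1.36 (1.33 to 1.39). The call changed with the weighting and the choice of cells. The log2 ratio, 0.44 as reported, was 1.30 with equal weight for each cell and 1.15 after thinning. It was 1.33 with classes from each cell's own markers, which named 90 graft and 1714 native cells endothelial. ADAMTS1 stood at 177 and 179 CPM in graft and native smooth muscle cells (0.987, 0.835 to 1.18) and at 10.2 and 10.3 CPM in macrophages (0.994, 0.727 to 1.37). After thinning, 40.9% of graft (34.0 to 48.1%) and 43.7% of native endothelial cells (42.1 to 45.3%) had an ADAMTS1 UMI, and 2.64% and 0.990% of macrophages did. These shares run against the thinned level, so no order of the tissues is read from them. Between the 5 largest endothelial clusters of the artery ADAMTS1 ranged from 514 CPM in cluster 6 to 1176 CPM in cluster 5, and it was at 346 CPM (18 UMIs) in the 41 cells of cluster 12. Graft cluster 23 was at 1137 CPM.

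ADAMTS4 and ADAMTS5, the aggrecanases, were higher in graft endothelial cells, where both were scarce in the artery. ADAMTS5 was at 49.9 CPM in graft and 3.20 CPM in native cells, a 15.6-fold difference (11.9 to 20.8), and 88.0% of its graft UMIs lay in the top 5% of cells. ADAMTS4 was at 27.0 and 1.85 CPM, a 14.6-fold difference (10.2 to 21.6), with 73.8% of its graft UMIs in the top 5% of cells. After thinning, 1.52% of graft endothelial cells had an ADAMTS4 UMI, the share of 3 cells. Smooth muscle cells held ADAMTS5 at 51.7 and 14.6 CPM (3.54-fold, 2.01 to 6.89) and ADAMTS4 at 43.0 and 20.7 CPM (2.08-fold, 1.28 to 3.59), the latter within the limit once 5 CPM were added. ADAMTS5 was highest in fibroblasts, with 721 CPM in graft and 248 CPM in native cells, and within cluster 4 the difference was 2.67-fold (2.33 to 3.04). Macrophages held at most 2.62 CPM of either gene.

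ADAMTS9, a broadly expressed proteoglycan protease, was higher in graft endothelial cells and lower in graft smooth muscle cells. Endothelial cells had 72.7 CPM in graft and 13.1 CPM in native cells, a 5.53-fold difference (4.78 to 6.43), with 70.8% of the graft UMIs in the top 5% of cells. Smooth muscle cells had 103 CPM in graft and 224 CPM in native cells, 2.17-fold lower in the graft (1.85 to 2.54). Weighting each smooth muscle cell equally gave a log2 ratio of -0.21 in place of -1.08, and thinning gave -0.64. Within endothelial cluster 9 ADAMTS9 was at 235 and 32.3 CPM in graft and native cells (7.27-fold, 5.09 to 10.2). ADAMTS15 was between 9.003 and 18.3 CPM in endothelial and smooth muscle cells of both tissues, and ADAMTS20 did not exceed 0.506 CPM in any class.

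ADAMTS2, ADAMTS3 and ADAMTS14 remove the amino-terminal propeptide of procollagens, and ADAMTS3 is also known to process the lymphatic growth factor VEGFC. ADAMTS3 was higher in graft endothelial cells, at 164 CPM against 29.9 CPM in the artery, a 5.49-fold difference (4.98 to 6.05), and was at 39.3 and 67.0 CPM in graft and native smooth muscle cells. In cluster 9 it was at 74.9 and 58.9 CPM, a ratio of 1.27 (0.701 to 2.14), and graft cluster 23 was at 165.7 CPM. ADAMTS2 was at 126 CPM in graft and 247 CPM in native smooth muscle cells, within 2-fold after 5 CPM were added. In macrophages it was at 77.4 and 31.6 CPM in graft and native cells, a 2.45-fold difference (2.10 to 2.88), which was 2.08-fold within cluster 13 (1.44 to 2.93) but log2 0.09 with native cells subsampled. ADAMTS14 was at 8.71 CPM in graft smooth muscle cells with 1 native UMI (7.15-fold, 1.25 to 285). Of the procollagen genes, their substrates, all 5 judged were at least 2-fold higher in graft smooth muscle cells and macrophages, and 3 of 5 in endothelial cells. Over all genes 7.89%, 5.98% and 7.26% were higher in smooth muscle cells, macrophages and endothelial cells. With 5 genes judged, nothing particular to the list is read from these counts.

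ADAMTS7 and ADAMTS12, which cleave cartilage oligomeric matrix protein, had opposite directions in smooth muscle cells. ADAMTS7, known for its part in smooth muscle migration, was at 32.5 CPM in graft and 8.53 CPM in native cells, a 3.81-fold difference (1.83 to 9.53). ADAMTS12 was at 41.9 and 118 CPM, 2.82-fold lower in the graft (2.24 to 3.52), with a log2 ratio of -0.46 in place of -1.39 when each cell had equal weight. Endothelial cells of the graft had ADAMTS7 at 23.1 CPM against 0.923 CPM in the artery (25.0-fold, 15.3 to 43.6), and ADAMTS12 at 5.06 and 14.9 CPM. Within cluster 9 ADAMTS12 had the other direction, at 124.9 and 54.4 CPM in graft and native cells (2.30-fold, 1.45 to 3.48). ADAMTS7 had 0 graft and 5 native UMIs in that cluster, so its difference was not seen there. T or NK cells had ADAMTS7 at 40.4 CPM from 19 graft UMIs and 14.7 CPM in the artery.

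The fibrillin-associated members, ADAMTS6, ADAMTS10, ADAMTS17 and ADAMTS19, act on microfibrils and cell adhesions. ADAMTS6 (ENSOARG00020005687) was highest in endothelial cells among graft classes, with 535 CPM (520 to 549) against 92.1 CPM in the artery (87.8 to 96.6), a 5.80-fold difference (5.49 to 6.13). After thinning, 37.4% of graft (30.6 to 44.5%) and 7.73% of native endothelial cells (6.88 to 8.65%) had an ADAMTS6 UMI, and 1.24% of native T or NK cells did. Among the 5 largest native endothelial clusters ADAMTS6 ranged from 21.8 CPM in cluster 6 to 216 CPM in cluster 9, and the 41 cells of cluster 12 had 0 UMIs. In cluster 9 the graft cells stood at 409.7 CPM, a 1.90-fold difference (1.49 to 2.38), against 5.80-fold over the whole class.

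ADAMTS6 was also higher in graft smooth muscle cells, at 129 CPM against 14.6 CPM (8.85-fold, 5.05 to 17.2), and its log2 ratio there was 0.67 after thinning in place of 2.78. In macrophages it was at 14.7 and 3.11 CPM (4.74-fold, 2.94 to 8.06), but at 3.29 and 3.11 CPM within cluster 13. ADAMTS17 was at 112 CPM in native and 28.1 CPM in graft smooth muscle cells, 3.996-fold lower (3.13 to 5.06), with log2 ratios of -0.93 with equal weight for each cell and -0.57 after thinning in place of -1.82, while graft fibroblasts held 197 CPM and native ones 12.6 CPM. ADAMTS19 was highest in fibroblasts of both tissues, at 619 CPM in graft and 59.3 CPM in native cells. Its 6.33 CPM in graft smooth muscle cells stood against 0 native UMIs, at least 1.73-fold higher when 3 native counts are assumed, and the log2 ratio was 0.41 without the cells carrying macrophage markers, in place of 1.18. All 69 of these graft UMIs lay in 9 of 200 cells. ADAMTS10 was between 13.96 and 25.6 CPM in endothelial and smooth muscle cells of both tissues and passed the limit in neither.

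ADAMTS13, which cuts von Willebrand factor, ADAMTS16, linked to fibronectin cleavage and blood pressure, and ADAMTS18 complete the proteases. ADAMTS13 was at 4.55 CPM in graft and 13.7 CPM in native endothelial cells, 3.02-fold lower (2.19 to 4.24), and at 4.06 and 12.9 CPM in macrophages, 3.18-fold lower (2.195 to 4.65); neither reached the limit after 5 CPM were added. In smooth muscle cells it was at 0.826 and 8.53 CPM, 10.3-fold lower (3.27 to 31.2), from 9 graft and 7 native UMIs. ADAMTS16 was at 36.0 CPM in graft and 0.815 CPM in native endothelial cells, a 44.2-fold difference (26.4 to 79.8), with 59.8% of the graft UMIs in the top 5% of cells. Graft cluster 23 was at 36.9 CPM. In endothelial cluster 9, with 25 graft cells, ADAMTS16 had 0 graft UMIs and 1 native UMI, so the difference was not seen there. Smooth muscle cells had ADAMTS16 at 19.3 CPM in graft cells, with 0 native UMIs, at least 5.27-fold higher when 3 native counts are assumed. Of these graft UMIs, 60.5% lay in the top 5% of cells. After thinning 0.5% of graft smooth muscle cells had one, and the native share of 0 allows up to 2.73%. ADAMTS18 was at 38.8 CPM in graft and 4.88 CPM (4 UMIs) in native smooth muscle cells, a 7.96-fold difference (3.09 to 29.3).

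Of the 5 ADAMTS-like genes, 0 were at least 2-fold higher and 2 were lower in graft smooth muscle cells, and 0 were higher and 1 was lower in graft endothelial cells, where 8.20% and 5.98% of all genes were lower. Their median log2 ratios were -0.90 and -0.87, beside -0.03 over all genes in each class. ADAMTSL3 (ENSOARG00020021630), also called punctin 2, was at 22.2 CPM in graft and 164 CPM in native endothelial cells, 7.40-fold lower (6.45 to 8.53). In smooth muscle cells it was at 6.51 and 62.2 CPM, 9.55-fold lower (6.53 to 13.9). Native fibroblasts held 979 CPM (958 to 1000.3) and graft ones 248 CPM (199 to 306). The intervals did not overlap in any of the 3 classes. In fibroblast cluster 4 the graft to native ratio was 0.226 (0.181 to 0.279), and in endothelial cluster 9 it was 0.672 (0.465 to 0.940). Native T or NK cells, which should lack the gene, held ADAMTSL3 at 16.7 CPM, and after thinning 2.75% of them had a UMI, against 12.6% of native and 4.04% of graft endothelial cells. The part of free RNA from fibroblasts, which held the highest level, in the native endothelial level was not tested.

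ADAMTSL2, a fibrillin-binding protein linked to TGF-beta control, was at 3.67 CPM in graft and 29.3 CPM in native smooth muscle cells, 7.97-fold lower (4.60 to 13.6). ADAMTSL4, which promotes fibrillin deposition, was at 22.6 and 36.6 CPM in these cells and at 111 and 134 CPM in fibroblasts. It was at 100.2 CPM in the osteoclast-marker cluster 17, against 10.6 CPM in macrophage cluster 16 of the same graft; over all 255 unnamed graft cells 17 had an ADAMTSL4 UMI, and 96.9% of the UMIs lay in the top 5% of cells. ADAMTSL1 was highest in fibroblasts, at 274 CPM in graft and 336 CPM in native cells, and ADAMTSL5 was at 18.2 and 37.4 CPM in graft and native endothelial cells.

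**Figure D4:**
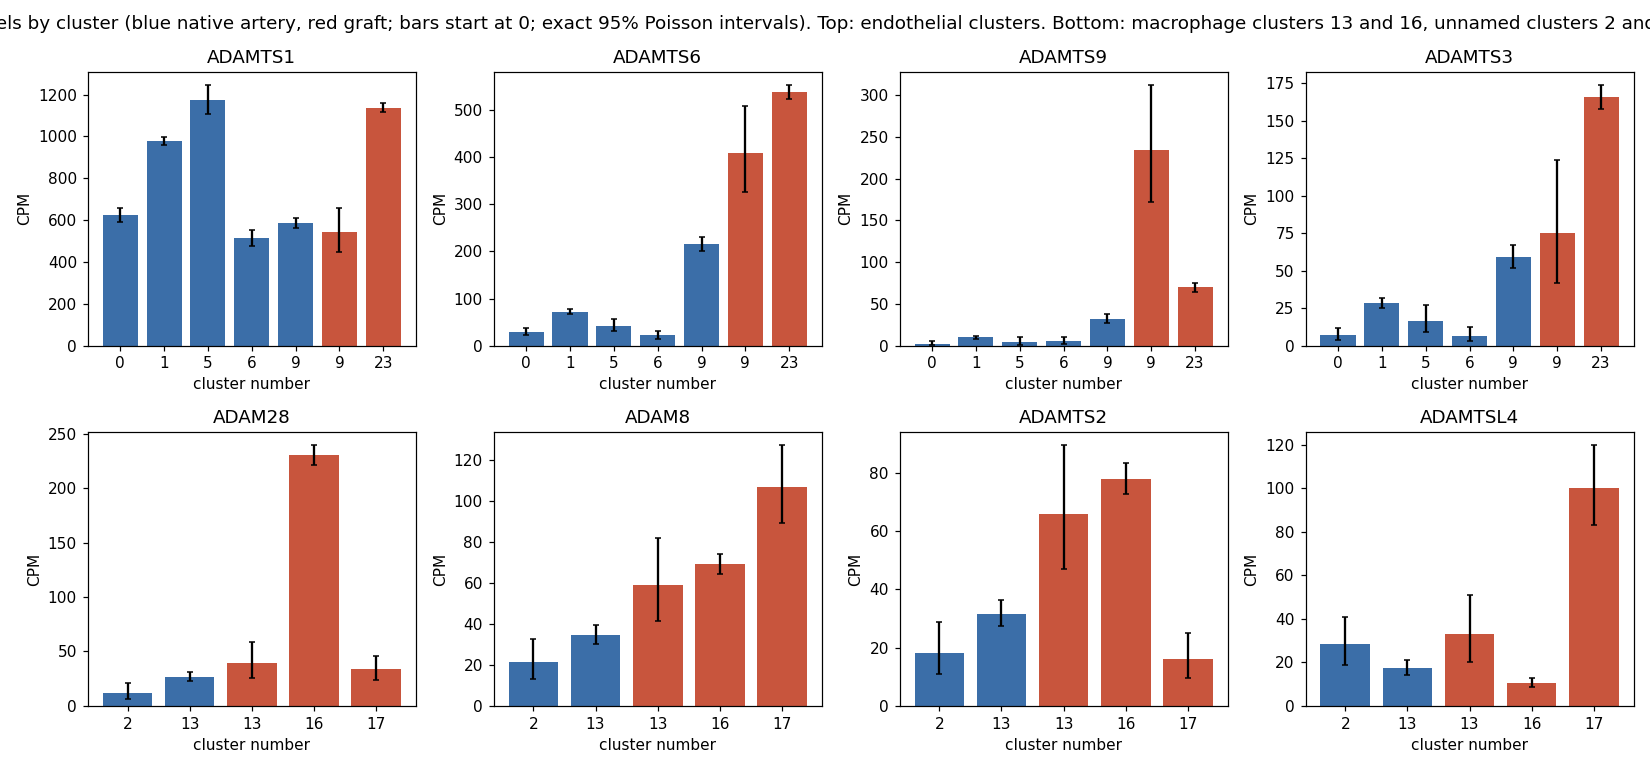
CPM of 4 members in endothelial clusters (top) and of 4 members in macrophage clusters 13 and 16 and unnamed clusters 2 and 17 (bottom), blue for native and red for graft cells, with exact Poisson intervals. Cluster 9 has both a native and a graft bar: ADAMTS9 differs there 7.27-fold and ADAMTS3 1.27-fold. ADAM28 reaches 231 CPM in graft cluster 16 and stays between 26.4 and 39.4 CPM in cluster 13.

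The clusters behind each class differed between the tissues. Of the graft cells, cluster 21 held 197 of 200 smooth muscle cells, cluster 23 held 176 of 205 endothelial cells and cluster 16 held 269 of 303 macrophages. Of the native cells, cluster 11 held 150 of 162 smooth muscle cells and cluster 13 held 403 of 404 macrophages. Clusters 21, 23 and 16 held 12, 6 and 1 native cells. Library and cluster therefore cannot be told apart for most values of smooth muscle cells, endothelial cells and macrophages. The comparisons within clusters 4, 9 and 13 rest on 27, 25 and 34 graft cells. Markers of cycling cells summed to 514 CPM in graft and 46.4 CPM in native endothelial cells, with 6 of 6 detected in each, and markers of smooth muscle cells to 689.6 and 347 CPM, with 12 and 11 of 12 detected. Fibroblast markers summed to 4093 and 3163 CPM, with 12 of 12 detected in each; the part of these cells in the endothelial differences was not tested.

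Genes that act with the family were read from lists of inhibitors, partners and substrates. Their counts stand beside the shares over all genes, 7.89% higher and 8.20% lower in smooth muscle cells, 7.26% and 5.98% in endothelial cells, and 5.98% and 2.87% in macrophages. With 5 to 27 genes judged per list, nothing particular to a list is read from them. Of 5 inhibitor and uptake genes judged, 2 were higher and 1 lower in graft smooth muscle cells. TIMP1, a secreted metalloprotease inhibitor, was at 4089 and 1269 CPM in graft and native cells, and RECK, a membrane-anchored inhibitor of ADAM10, was at 50.1 and 149 CPM. TIMP3, an inhibitor of several ADAM and ADAMTS proteases, was within 2-fold, at 467 and 403.5 CPM. In endothelial cells 1 of 5 was higher and 2 were lower, with TIMP1 at 862 and 311 CPM and RECK at 50.9 and 221 CPM. LRP1, a receptor that takes up ADAMTS proteases, was at 13.5 and 56.0 CPM there, and at 269.99 and 65.4 CPM in macrophages, where 2 of 5 were higher and 0 lower.

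Of 13 maturation and trafficking partners judged in smooth muscle cells, 3 were higher and 3 lower, beside 7.89% and 8.20% of all genes. TSPAN5 and TSPAN17, tetraspanins that guide ADAM10, were at 18.3 and 40.1 CPM in the graft and 42.7 and 17.1 CPM in the artery. B3GLCT, which adds a sugar needed for ADAMTS secretion, was at 62.1 and 167 CPM. Endothelial cells had 2 of 13 higher and 0 lower, with TSPAN17 at 47.1 and 11.9 CPM, and macrophages had 1 of 14 higher and 1 lower.

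Substrate genes were counted by list. VCAN, which encodes versican, was at 2225 and 1175 CPM in graft and native smooth muscle cells, within 2-fold, at 183 and 20.6 CPM in endothelial cells and at 199 and 28.5 CPM in macrophages. Among 6, 5 and 5 proteoglycan and link genes judged in these classes, 1, 2 and 3 were higher and 0, 1 and 0 lower. The fibrillin and latent TGF-beta binding protein list had 1 higher and 1 lower of 6 in smooth muscle cells, 1 and 2 of 6 in endothelial cells, and 2 and 0 of 6 in macrophages. LTBP4 was at 136 and 501 CPM in graft and native smooth muscle cells, and LTBP1 at 1299 and 109 CPM in endothelial cells. Of the substrates of ADAM10 and ADAM17, 5 of 27 were higher and 1 lower in smooth muscle cells, 8 and 3 of 27 in endothelial cells, and 5 and 0 of 26 in macrophages, beside 7.89% and 8.20%, 7.26% and 5.98%, and 5.98% and 2.87% of all genes. CD44, the hyaluronan receptor, was at 916 and 397 CPM, 202 and 12.1 CPM, and 2610 and 1195 CPM in graft and native cells of these 3 classes. NOTCH1, NOTCH2 and NOTCH4 were within 2-fold in all 3 classes, while NOTCH3 was within 2-fold in the vessel wall classes and at 7.62 and 0.327 CPM in graft and native macrophages.

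Some members lie side by side in the genome, which the choice of genes did not use. In the RefSeq gene order of the sheep assembly ARS-UI_Ramb_v3.0, where 38 of the 44 symbols were found, ADAMTS1 and ADAMTS5 are neighbours, and so are ADAMDEC1 and ADAM28. In endothelial cells ADAMTS5 was 15.6-fold higher in the graft and ADAMTS1 1.36-fold. In macrophages ADAM28 was 8.38-fold higher in the graft, while ADAMDEC1 stood at 7.70 CPM there and 18.3 CPM in the artery.

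The called differences were followed through 13 alternative ways of processing. Of the 33 pairs of member and class counted as at least 2-fold apart, 18 stayed at least 2-fold apart in the same direction in every alternative that gave a value, and 384 of 387 values had the direction reported above. Part of these directions could not change. Adding 1 CPM in place of 5, or judging members from 1 UMI, keeps every direction. Leaving out clusters 9 and 12 removed no smooth muscle cell or macrophage, and leaving out cells carrying macrophage markers removed no macrophage. ADAM12 kept log2 ratios from 3.64 to 6.69 in smooth muscle cells and from 3.49 to 4.61 in endothelial cells, and ADAMTSL3 from -3.07 to -2.16 and from -2.83 to -1.07. In macrophages ADAM15 and ADAMTS6 changed direction in 1 or more alternatives and ADAM28 ranged from 0.54 to 3.02, and these macrophage values are given with that limit.

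**Figure D5:**
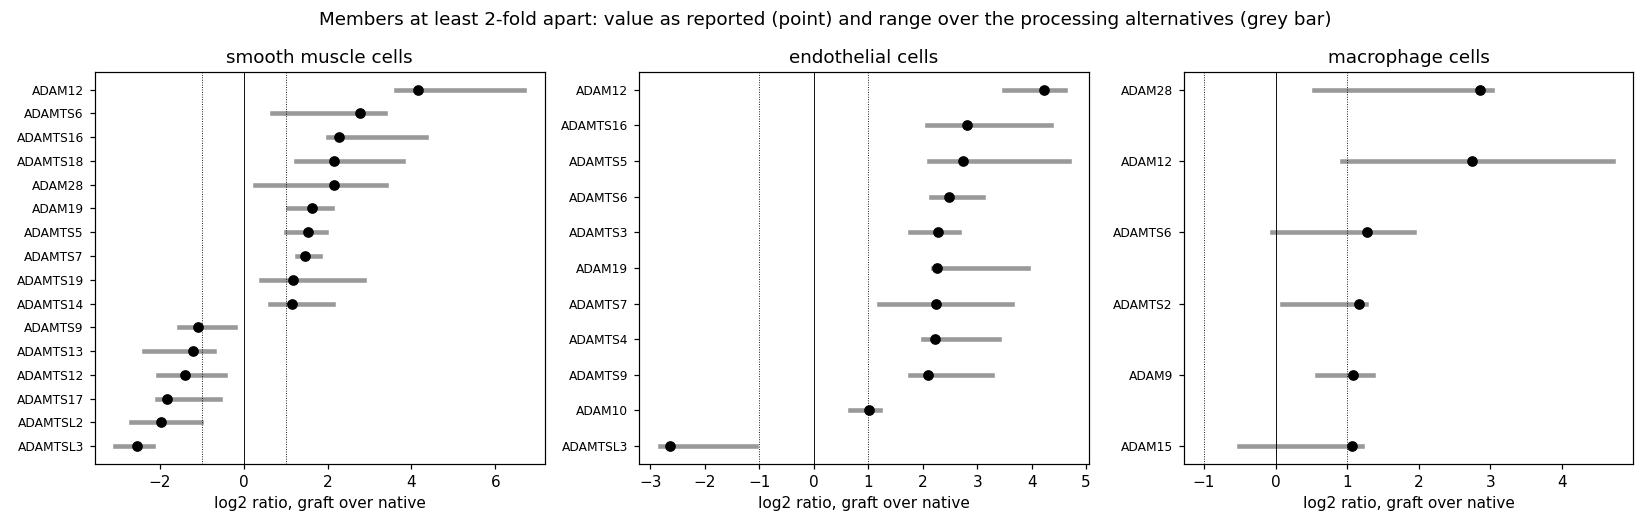
Log2 ratio of graft over native CPM (horizontal) for the members at least 2-fold apart in each class, with dotted lines at 2-fold. Points are the values as reported, with 5 CPM added. Grey bars are the range over the processing alternatives, of which 1 added 1 CPM in place of 5. The bars of ADAM12 lie wholly above 2-fold in smooth muscle and endothelial cells, and the bars of ADAM15 and ADAMTS6 in macrophages cross 0.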

How the data were processed

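The authors deposited filtered matrices of whole-number UMI counts, 1 per library, made with Cell Ranger 7.2.0 per the file headers; Seurat 5.0.0, R 4.3.3 and bcl2fastq 2.20.0.422 are listed, too, per the submitters' processing notes. The genome build and the counting of introns and strand are not given in the sources used here. Genes without a symbol (6435) held 22.7% of native and 18.8% of graft UMIs and could not be searched. Barcodes under 200 genes or over 20% mitochondrial UMIs (266 native, 143 graft) and the highest Scrublet scores (1034 and 12; its automatic call marked 0 and 2) were removed. Scanpy 1.11.5 clustered both libraries together without integration (2000 variable genes, 30 components, 15 neighbours, Leiden resolution 1). Clusters took the name of the best marker list, or stayed unnamed with under 3 markers, over 50% as many markers of another class, more of another class among the 10 leading genes, or shallow cells; these limits were set after the clusters were seen. CPM carry exact Poisson, ratios conditional binomial and shares Clopper-Pearson intervals. Members named in full were ADAM10, ADAM17, ADAMTS1, ADAMTS4, ADAMTS5 and ADAMTS13, up to 8 per class and direction at least 2-fold apart with 30 UMIs, and the 3 highest per class; others are given by range, or were named after their values were seen. Members and lists were chosen with earlier results of these data known. The comparison was run on simulated counts with known changes. These held no variation between cells, clusters or libraries and no 2-fold change. They check the calculation only, and not the differences between the tissues.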

Additional observations from a re-analysis of the deposited data

Results flagged for a closer look

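ADAMTS9 stood out because its direction differed between the vessel wall classes. The log2 ratio of graft over native cells, after 5 CPM were added, was 2.10 in endothelial cells and -1.08 in smooth muscle cells. The difference between the classes was not tested, since each tissue has 1 library. Over the alternatives the endothelial value ranged from 1.77 to 3.26 and the smooth muscle value from -1.55 to -0.21.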

How the results depend on the processing

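With 1 library per tissue, no statement above has a replicate check, and tissue, animal, digestion and capture cannot be told apart. Low graft cell numbers in shared clusters and 820329 native smooth muscle UMIs limit the low genes. No paired analysis was possible because each group has 1 library and the labels carry no replicate numbers. The alternatives without clusters 9 and 12, without cells carrying macrophage markers, and with cells of at least 5000 UMIs were chosen after seeing the data; the cause of the changes below was not tested unless stated. Thinning to 1000 UMIs left 14 smooth muscle, 20 endothelial and 9 macrophage members to judge, with 4 smooth muscle members higher and 1 lower, 3 endothelial members lower, and a macrophage median of 0.77. Over all genes, thinning gave 16.9% higher and 14.7% lower in smooth muscle cells and 15.4% lower in endothelial cells. The macrophage median over all genes was then 0.06. Adding 1 CPM in place of 5 gave 5 endothelial members lower, and 10 macrophage members higher and 4 lower. The shares over all genes were then 11.75% lower in endothelial cells, and 10.4% higher and 6.64% lower in macrophages. Endothelial members lower, 1 as reported, numbered 2 with each library clustered by itself, with native cells subsampled and without cells carrying macrophage markers, 3 with equal weight for each cell, without doublet removal and without clusters 9 and 12, and 5 with classes from each cell's own markers, which gave 1 macrophage member lower. In these alternatives the share of all genes lower in endothelial cells lay between 5.14% and 7.005%. With own markers 2.94% of all genes were lower in macrophages. Macrophage members higher, 6 as reported, were 3 with native cells subsampled (166 graft and 47 native cells) and 0 without doublet removal, which also gave 3 lower. Without doublet removal the class held 33 graft cells. Over all genes 6.92% were higher in macrophages with native cells subsampled, and 3.125% were higher and 4.17% lower without doublet removal. Without doublet removal the log2 ratio of ADAM15 was -0.0236 and that of ADAMTS6 -0.0571, and ADAM15 was at -0.5125 with native cells subsampled. Clustering each library by itself named no graft macrophages, and subsampling left 19 native smooth muscle cells, so neither gave a value for that class.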
